A study of Mus musculus with 18 samples.

Results

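A set of 10 genes of mitochondrial uncoupling and heat production was followed in the livers of 18 mice. The genes were chosen by name, with earlier results of these data known. They are the uncoupling proteins Ucp1, Ucp2 and Ucp3, the related carriers Slc25a14 and Slc25a27, the ADP/ATP carriers Slc25a4 and Slc25a5, the coactivator Ppargc1b, and the deiodinases Dio1 and Dio2. All 10 had at least 1 probe on the array. They were read on 13 of its 39429 probes, and 21153 genes could be named on the array in all.

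The mice were C57BL/6 males fed from 6 weeks of age on a control diet with 10% of its energy as fat (LFD) or on a diet with 60% (HFD). After 10 weeks of diet, part of each cohort received 5 weekly intraperitoneal injections of methotrexate at 50 mg/kg (MTX50), and livers were taken 1 week after the last one. Liver RNA of 4 untreated and 5 methotrexate-treated mice on LFD, and of the same numbers on HFD, was hybridized to 1 one-colour Agilent array per mouse. The untreated groups are labelled as differing in diet, and each methotrexate group is compared with the untreated mice of its diet. The study followed proton leak under methotrexate in HepG2, a human liver cancer cell line, and these genes carry the question of uncoupling to mouse liver at the level of RNA.

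The inner mitochondrial membrane keeps a proton gradient that ATP synthase spends to make ATP. Ucp1 in brown fat and, in part, ADP/ATP carriers let protons return without making ATP, so that the energy leaves as heat. The other uncoupling proteins are related to Ucp1, and the level of their RNA does not measure proton leak. Ppargc1b and its relative Ppargc1a drive the building of mitochondria. Deiodinases set the supply of active thyroid hormone, a main regulator of heat production.

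Values are log2 levels, the log2 of a probe's signal minus the log2 of the 75th percentile of its array, so that a level of 0 equals the 75th percentile. A level cannot be set against that of another probe, and only differences between groups are compared. Each gene was read on its brightest probe, and a gene was called when the limma adjusted p over all 35738 kept probes was under 0.05. The number of arrays limits the precision of every difference. In whole liver, fewer cells of a type and less RNA per cell cannot be told apart.

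The 75th percentile lay at an intensity of 1202.7 to 2263 and 83.85 to 90.6% of probes were well above background. The 8 hepatocyte markers, such as Alb and Cps1, were all measured, with a summed level of 631 to 1060 times the 75th percentile. The 4 LFD mice lay alone on 1 slide, so slide and group cannot be told apart in a comparison with LFD. HFD mice 3 and 4 shared a slide with HFD MTX50 mice 1 and 2. Over the 19597 genes tested, dim genes lay higher and bright genes lower against LFD: genes with a mean level between -5 and -4 had a median difference of 0.382 for HFD and of 0.357 for LFD MTX50, and genes between 3 and 4 had -0.209 and -0.162. In HFD MTX50 vs HFD these medians were -0.154 and 0.096. The median of genes within 0.5 of a member's mean level is therefore given beside each called difference. The part of this drift in the members' results was not tested.

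Of the 10 genes, 9 were well above background on every array. Ucp1 was not. Its probe was well above background on 0 of 4 LFD, 1 of 5 LFD MTX50, 1 of 4 HFD and 2 of 5 HFD MTX50 arrays. A dim probe of Ucp3 was well above background on 0 of 4 LFD, 2 of 5 LFD MTX50, 4 of 4 HFD and 2 of 5 HFD MTX50 arrays, whereas the bright Ucp3 probe was measured on all 18. The remaining 11 probes were above background on 18 of 18 arrays.

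**Figure D1:**
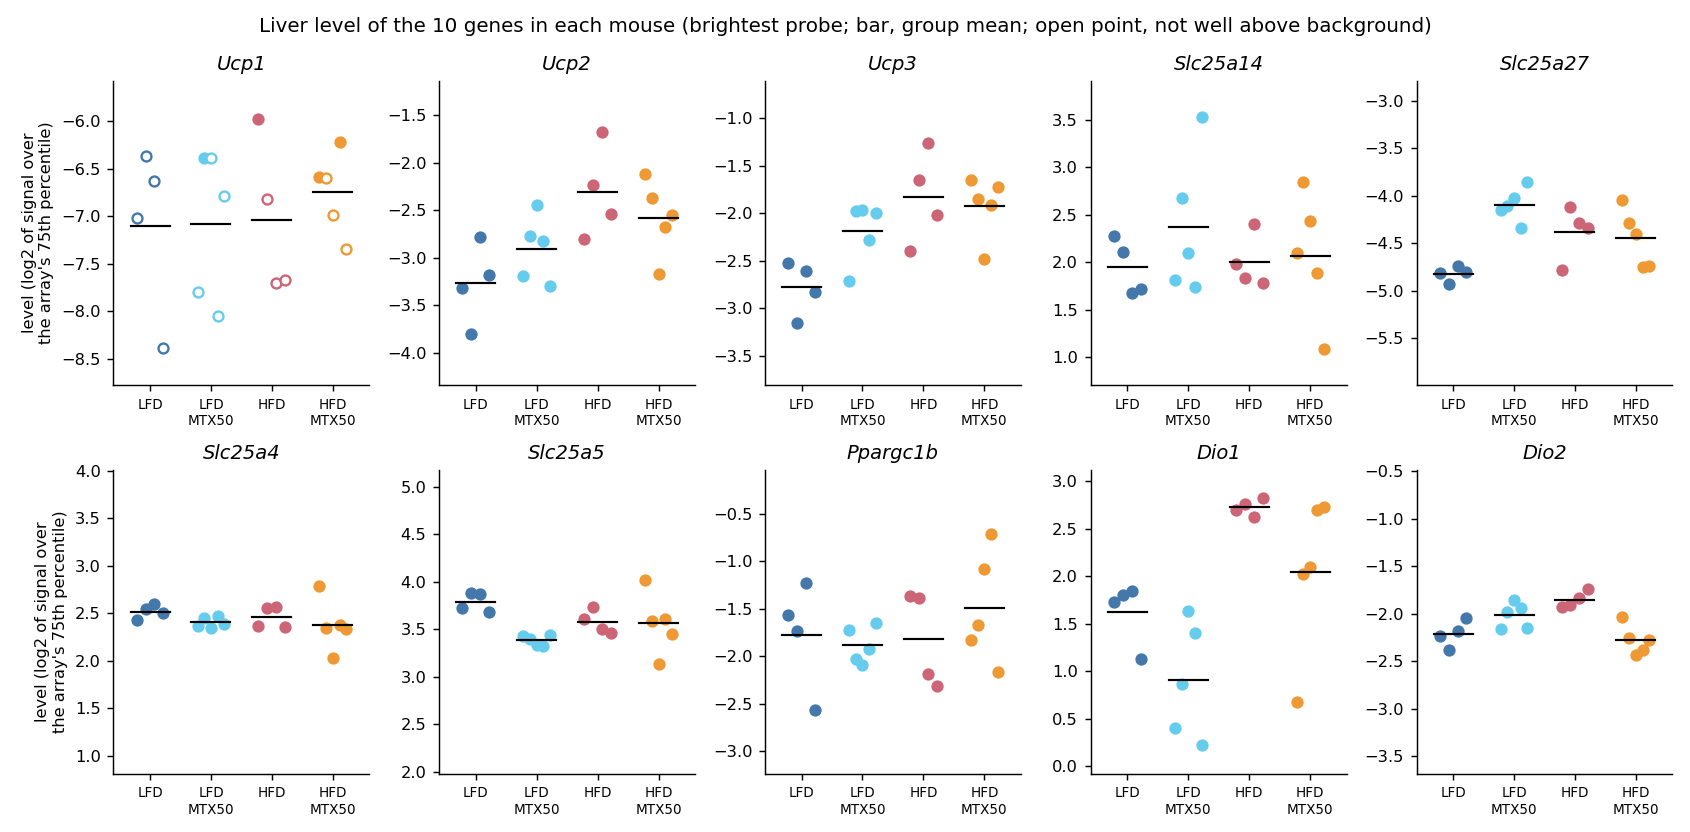
Level of each of the 10 genes in each mouse, 1 panel per gene. The y axis is the log2 signal over the array's 75th percentile and its position differs between panels, points are mice grouped by diet and treatment, bars are group means, and open points were not well above background. The Ucp1 points are mostly open, the 4 HFD points of Dio1, at levels of 2.62 to 2.82, lie above the LFD points, and the Slc25a27 points of LFD MTX50 lie above those of LFD.

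The high-fat diet alone was compared first. Ucp2, Ucp3, Slc25a27, Dio1 and Dio2 read higher in HFD than in LFD livers, so that 5 of the 10 genes were called higher and 0 lower. The LFD mice lay alone on 1 slide, and none of these 5 calls remained with slide as a random effect. Slc25a27 and Dio2 were also not called after quantile normalization. Over all genes tested, 18% were called higher and 10.4% lower. Of genes within 0.5 of the member's level, 29.2% were called higher for Ucp2, 25.6% for Ucp3 and 32.9% for Slc25a27. These shares were 25% for Dio2 and 5.8% for Dio1. Dio1 alone passed a 2-fold difference (2.14-fold), as did 2.86% of all genes. With methotrexate on the low-fat diet, Slc25a27 was higher and Slc25a5 lower, 1 of 10 genes in each direction, where 17.6% of all genes were called higher and 10.5% lower. With methotrexate on the high-fat diet, Dio2 was lower, 1 of 10 genes, and 0 were higher, where 4.83% of all genes were called higher and 6.13% lower. Dio2 was also the 1 gene of the 10 with an unadjusted p under 0.05 there. The split of the calls over all genes moved with the scaling. Of the genes called in the 3 comparisons, taken in this order, 63.4%, 62.7% and 44% were higher in these values, 47.4%, 45.3% and 44.5% after quantile normalization, 44.8%, 44.7% and 53.2% when each array was scaled to the median of probes above background on every array, and 51.3%, 56.9% and 63.2% after normexp background correction with extreme spot backgrounds replaced, an alternative chosen after seeing the data. HFD vs LFD and LFD MTX50 vs LFD share the 4 LFD mice, and HFD vs LFD and HFD MTX50 vs HFD share the 4 HFD mice.

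**Figure D2:**
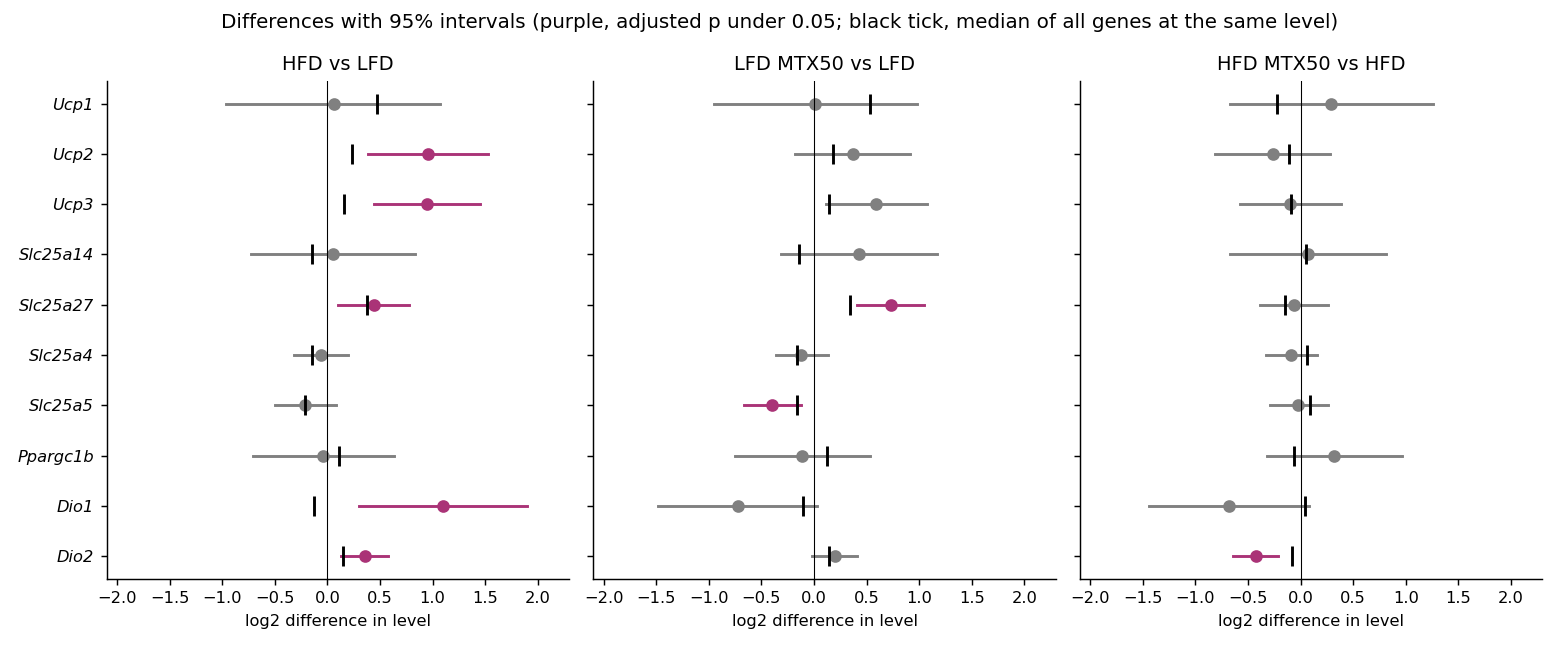
Log2 difference of each gene on its brightest probe in the 3 comparisons, with its 95% interval from limma. Purple marks an adjusted p under 0.05 and the black tick is the median difference of all genes within 0.5 of the gene's mean level. In HFD vs LFD the intervals of Ucp2, Ucp3 and Dio1 lie above their ticks, and the points of Slc25a27 (0.44) and its tick (0.38) nearly coincide.

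Ucp1, the uncoupling protein of brown fat, stayed near the detection limit. Its levels were -7.02, -6.36, -6.63 and -8.38 in LFD, -7.8, -6.39, -6.39, -8.05 and -6.79 in LFD MTX50, -5.97, -6.82, -7.7 and -7.67 in HFD, and -6.58, -6.6, -6.98, -6.22 and -7.34 in HFD MTX50. The lowest level that any probe reached while well above background was -6.9 to -5.88, depending on the array. The group means of -7.1 in LFD, -7.08 in LFD MTX50 and -7.04 in HFD lie under that range and the mean of -6.74 in HFD MTX50 within it, so no fold is given for Ucp1. Its differences did not pass the test (HFD vs LFD 0.06, adjusted p = 0.938; LFD MTX50 vs LFD 0.01, adjusted p = 0.984; HFD MTX50 vs HFD 0.29, adjusted p = 0.687).

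Ucp2 and Ucp3 code for carriers related to Ucp1. Ucp2 is found in many tissues and in macrophages, and Ucp3 is best known from skeletal muscle and brown fat, where it is linked to the use of fatty acids. The genes are neighbours on mouse chromosome 7. Because their brightest probes moved together in these livers, the 250 bases before each start site are shown from RefSeq (assembly GRCm38.p6), both on the plus strand. Capitals mark the letters AGGTCA, the half-site bound by several nuclear receptors, searched on both strands together with the palindromic TGACGTCA (cAMP response element), the letters TATAAA of many start sites, and CCAAT.
Ucp3, chr7:100472741-100472990: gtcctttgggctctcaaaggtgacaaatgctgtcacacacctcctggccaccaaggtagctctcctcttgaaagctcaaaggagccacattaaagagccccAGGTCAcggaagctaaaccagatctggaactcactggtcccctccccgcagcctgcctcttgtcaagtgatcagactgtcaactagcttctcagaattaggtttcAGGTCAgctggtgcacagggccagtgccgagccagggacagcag
Ucp2, chr7:100493108-100493357: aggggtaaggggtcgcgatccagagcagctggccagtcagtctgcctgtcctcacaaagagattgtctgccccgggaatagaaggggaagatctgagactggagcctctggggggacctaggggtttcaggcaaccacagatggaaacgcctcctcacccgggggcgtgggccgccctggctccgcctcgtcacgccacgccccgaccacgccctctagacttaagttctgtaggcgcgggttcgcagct
The Ucp3 window holds AGGTCA at 149 and 44 bases before the start, and the Ucp2 window does not hold these letters or those of the 3 other motifs. AGGTCA is found in 14% of the 32851 windows of the table and in 2 of the 8 member genes that have one (Ucp1 and Ucp3). A match of letters is not a binding site.

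Ucp2 levels were -3.32, -3.8, -2.78 and -3.18 in LFD and -2.8, -2.23, -1.68 and -2.54 in HFD. The HFD mice lay higher as a group, and HFD mouse 1 fell just below LFD mouse 3. The difference was 0.96 ± 0.27 (SE, 1.94-fold; adjusted p = 0.0178; two-sided exact permutation p = 0.057), where the median gene at the same level had 0.23. Under methotrexate the levels were -3.19, -2.77, -2.44, -2.82 and -3.3 in LFD MTX50 and -2.12, -2.37, -3.17, -2.68 and -2.55 in HFD MTX50. Both sets overlapped with their untreated group. Neither difference passed (LFD MTX50 vs LFD 0.37, 95% interval -0.18 to 0.91, adjusted p = 0.282; HFD MTX50 vs HFD -0.26, interval -0.81 to 0.28, adjusted p = 0.498).

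Ucp3 levels were -2.53, -3.16, -2.61 and -2.83 in LFD and -2.4, -1.65, -1.26 and -2.02 in HFD. Every HFD mouse lay above every LFD mouse. The difference was 0.95 ± 0.24 (SE, 1.93-fold; adjusted p = 0.0114; exact permutation p = 0.029, the smallest that 4 against 4 mice can give), where the median gene at that level had 0.16. The dim Ucp3 probe was not well above background on any LFD array, and the bound was at least 1.22-fold higher in HFD. Its limma adjusted p of 0.0488 compares group means of -8.18 and -6.27. Since the LFD values lay below the detection limit, that p does not test the bound. LFD MTX50 mice had Ucp3 levels of -2.72, -1.98, -1.97, -2.28 and -2, and 4 of the 5 lay above the highest LFD mouse. That difference of 0.59 ± 0.23 missed the threshold (adjusted p = 0.0595; exact permutation p = 0.04), where genes at that level had a median of 0.14. It was called in 4 of the 18 fits that left out 1 mouse, such as without mouse 1 of that group (0.72, adjusted p = 0.033). Of 15 other alternatives 2 called it, and quantile normalization did not (0.42, adjusted p = 0.183). HFD MTX50 mice had -1.65, -1.85, -2.48, -1.92 and -1.73, within the range of HFD mice apart from mouse 3 (difference -0.1, interval -0.58 to 0.38, adjusted p = 0.799).

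Ucp2 and Ucp3, read on their brightest probes, were each other's nearest gene by profile. The dim Ucp3 probe, not well above background on every array, was not part of that comparison. In HFD MTX50 mouse 3 it read -4.06, its highest in that group, where the bright probe read its lowest of -2.48. After each gene's own mean was taken off, the levels of Ucp2 and Ucp3 differed by 0.181 on average over the 18 arrays, where the median gene of a pool of 17707 differed from Ucp2 by 0.452. The next nearest were Angpt2 for Ucp2 (0.202), a ligand of the Tie2 receptor, and Exo1 for Ucp3 (0.198), a DNA repair exonuclease. Both Ucp2 and Ucp3 kept a call in HFD vs LFD under quantile normalization, which gives every array the same distribution of values (0.77, adjusted p = 0.0438, and 0.79, adjusted p = 0.0263). With the slide as a random block neither passed (adjusted p = 0.122 and 0.0962), and the Ucp2 call was lost without LFD mouse 2 (adjusted p = 0.0608) and without HFD mouse 3 (0.0726). Markers of white adipocytes moved with the diet too. The summed level of the 5 markers was 0.362 to 0.526 in LFD, 0.482 to 0.841 in LFD MTX50, 4.16 to 6.68 in HFD and 0.627 to 1.59 in HFD MTX50. Within that list Cfd (5.99), Lep (2.3) and Plin1 (0.64) were higher in HFD, while Adipoq (-0.04, adjusted p = 0.901) and Retn (-0.23, adjusted p = 0.358) were not called. All 5 markers were above background on at least some arrays. The 9 Kupffer cell and macrophage markers summed to 47.6 to 66.6 in LFD and 35.8 to 60.7 in HFD, and the 6 skeletal muscle markers measured to 0.193 to 0.219 and 0.224 to 0.348. The part of other cell types in the Ucp2 and Ucp3 differences was not tested.

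Slc25a14 and Slc25a27 code for carriers of the uncoupling protein family that are best known from brain. Slc25a27 rose with methotrexate on the low-fat diet, and Slc25a14 passed in no comparison. Slc25a27 levels were -4.82, -4.93, -4.74 and -4.81 in LFD and -4.15, -4.11, -4.03, -4.34 and -3.86 in LFD MTX50, with no overlap. The difference was 0.73 ± 0.15 (SE, 1.66-fold; adjusted p = 0.00475; exact permutation p = 0.0079, the smallest that 4 against 5 mice can give). The 1679 genes at the level of Slc25a27 had a median of 0.34 in the same comparison, and 29.7% of them were called higher.

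HFD mice had Slc25a27 levels of -4.78, -4.12, -4.29 and -4.34, and HFD mouse 1 lay among the LFD mice. The difference from LFD of 0.44 ± 0.16 only just passed (adjusted p = 0.0496; exact permutation p = 0.057), and genes at that level had a median of 0.38. Under quantile normalization it was no longer called (0.12, adjusted p = 0.488), and 12 of the 18 fits that left out 1 mouse did not call it either, with adjusted p from 0.0134 to 0.131 over the 18. HFD MTX50 mice had -4.05, -4.29, -4.4, -4.75 and -4.74, across the range of HFD (difference -0.06, interval -0.39 to 0.26, adjusted p = 0.81). The methotrexate effect on Slc25a27 differed between the diets by -0.79 ± 0.22 (adjusted p = 0.0162), in a test where 8.66% of all genes were called higher and 18.1% lower and where genes at its level had a median of -0.47. Under quantile normalization that difference was not called (-0.35, adjusted p = 0.145). The higher level in LFD MTX50 than in LFD kept its call under quantile normalization (0.4, adjusted p = 0.0283) and lost it with slide as a random effect (0.76, adjusted p = 0.0618). In the profile over all mice, Slc25a27 was nearest to Epha7, an ephrin receptor (0.087), and Prr11, a gene of dividing cells (0.101).

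Slc25a14 levels spread over more than 1 log2 unit in both treated groups. They were 2.27, 2.11, 1.67 and 1.72 in LFD, 1.81, 2.67, 2.1, 1.74 and 3.53 in LFD MTX50, 1.98, 1.83, 2.4 and 1.78 in HFD, and 2.1, 2.84, 2.43, 1.88 and 1.08 in HFD MTX50. LFD MTX50 mouse 5 was the highest and HFD MTX50 mouse 5 the lowest of the 18. The differences were 0.05 in HFD vs LFD (interval -0.73 to 0.83, adjusted p = 0.926), 0.43 in LFD MTX50 vs LFD (interval -0.31 to 1.17, adjusted p = 0.362) and 0.07 in HFD MTX50 vs HFD (interval -0.67 to 0.81, adjusted p = 0.911).

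The ADP/ATP carriers exchange ADP and ATP across the inner membrane and are among the most abundant proteins there. Slc25a5, the widely expressed form, was lower in methotrexate-treated LFD livers, and Slc25a4, the form of heart and muscle, was not called. Slc25a5 levels were 3.72, 3.88, 3.87 and 3.68 in LFD and 3.43, 3.4, 3.34, 3.32 and 3.44 in LFD MTX50. The groups did not overlap. The difference was -0.4 ± 0.13 (SE, 1.32-fold; adjusted p = 0.0323; exact permutation p = 0.0079), where genes at that level had a median of -0.16 and 26.8% of them were called lower. It was not called under quantile normalization (-0.28, adjusted p = 0.174), with slide as a random effect (adjusted p = 0.185), or without any 1 of LFD mice 2 and 3 and LFD MTX50 mice 2, 3 and 4 (0.0511 to 0.0864).

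HFD mice had Slc25a5 levels of 3.61, 3.74, 3.5 and 3.46, and HFD MTX50 mice 4.02, 3.59, 3.14, 3.61 and 3.45. HFD lay between LFD and LFD MTX50 without a call (difference from LFD -0.21, interval -0.5 to 0.08, adjusted p = 0.257), and genes at that level had the same median of -0.21. HFD MTX50 differed from HFD by -0.02 (interval -0.29 to 0.26, adjusted p = 0.94). Its nearest genes by profile were Uqcr10 (0.083) and Cox6b1 (0.085), which code for subunits of respiratory complexes.

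Markers of other cell types also moved with methotrexate on the low-fat diet, where Slc25a27 and Slc25a5 were called. The 4 erythroid markers measured of 5 summed to 2.9 to 3.49 in LFD and 0.311 to 0.781 in LFD MTX50, the 7 neutrophil markers measured of 8 to 69.1 to 82.6 and 51.2 to 58.4, and the 9 Kupffer cell and macrophage markers to 47.6 to 66.6 and 37 to 46. The 6 skeletal muscle markers lay higher, at 0.249 to 0.368 in LFD MTX50 against 0.193 to 0.219. None of these ranges overlapped, and each marker counted was above background on at least some arrays. A sum is set mostly by its brightest markers, and the single markers did not all follow it. The median log2 difference was 0.36 for erythroid (2 called higher, 1 lower) and 1.09 for neutrophil markers (1 higher, 1 lower). It was 0.26 for Kupffer cell and macrophage markers (0 higher, 2 lower) and 0.53 for muscle markers (2 higher, 0 lower). The part of these cell types in the Slc25a27 and Slc25a5 results was not tested.

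The Slc25a4 probe was spotted 10 times on each array, and its levels hardly varied outside HFD MTX50. They were 2.43, 2.54, 2.6 and 2.5 in LFD, 2.36, 2.45, 2.34, 2.47 and 2.39 in LFD MTX50, 2.37, 2.55, 2.56 and 2.35 in HFD, and 2.79, 2.34, 2.03, 2.38 and 2.33 in HFD MTX50. The differences were -0.06, -0.12 and -0.09 in HFD vs LFD, LFD MTX50 vs LFD and HFD MTX50 vs HFD (adjusted p = 0.743, 0.458 and 0.64). Their 95% intervals ran from -0.32 to 0.2, from -0.36 to 0.13 and from -0.33 to 0.16. In the 5 LFD MTX50 against the 4 LFD mice the exact permutation p was 0.04.

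Ppargc1b codes for PGC-1 beta, a coactivator of mitochondrial and lipogenic genes in liver. It was called in no comparison. Levels were -1.56, -1.73, -1.23 and -2.56 in LFD, -1.72, -2.03, -2.09, -1.92 and -1.65 in LFD MTX50, -1.36, -1.39, -2.19 and -2.31 in HFD, and -1.83, -1.67, -1.08, -0.71 and -2.16 in HFD MTX50. All 4 groups overlapped. The differences were -0.04 in HFD vs LFD (interval -0.71 to 0.63, adjusted p = 0.93), -0.11 in LFD MTX50 vs LFD (interval -0.75 to 0.53, adjusted p = 0.795) and 0.32 in HFD MTX50 vs HFD (interval -0.32 to 0.96, adjusted p = 0.483).

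The other PGC-1 coactivators and their partner factors were read as a list. Of its 27 genes, 7 were called lower and 0 higher in HFD vs LFD, with a median difference of -0.24 against 0.08 over all genes. Over all genes, 10.4% were called lower and 18% higher. The medians of this and the other lists were not matched by level. In HFD MTX50 vs HFD 5 of the 27 were called higher and 0 lower (median 0.1 against -0.04), beside 4.83% and 6.13% of all genes. Ppargc1a, the closest relative of Ppargc1b, was lower in HFD (-1.2 ± 0.25, adjusted p = 0.00528) and higher in HFD MTX50 than in HFD (0.76 ± 0.24, adjusted p = 0.0482). Sirt1, a deacetylase that acts on PGC-1 alpha, did the same (-0.61, adjusted p = 0.00527, and 0.51, adjusted p = 0.0187). Gabpa, a factor for respiratory chain genes, was lower in HFD (-0.85, adjusted p = 0.00253), and Pprc1, the other family member, was higher in HFD MTX50 (0.7, adjusted p = 0.0172). In LFD MTX50 vs LFD 2 of the 27 were higher and 4 lower, beside 17.6% and 10.5% of all genes. The orphan receptor Esrrb (-1.49, adjusted p = 0.0109) and the nuclear respiratory factor Nrf1 (-0.57, adjusted p = 0.0388) were lower, and Twnk, the helicase of mitochondrial DNA, was higher (0.46, adjusted p = 0.015).

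Dio1 is the main deiodinase of liver, and its gene is a textbook target of thyroid hormone. It was the member with the largest called difference by diet. Its brightest probe (A_51_P403477) read 1.73, 1.8, 1.84 and 1.13 in LFD and 2.7, 2.76, 2.62 and 2.82 in HFD. The HFD mice lay close together and above every LFD mouse, of which mouse 4 stood low. The difference was 1.1 ± 0.38 (SE, 2.14-fold; adjusted p = 0.0393; exact permutation p = 0.029), whereas genes at that level had a median of -0.13 and 5.8% were called higher.

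The 2 dimmer Dio1 probes gave the same order. A_55_P2046657 read -0.81, -0.86, -0.71 and -1.2 in LFD and 0.01, 0.28, 0.3 and 0.45 in HFD (1.15 ± 0.3, adjusted p = 0.0127), and A_55_P2039429 read -1.74, -1.81, -1.73 and -1.86 against -1.29, -1.05, -0.96 and -0.88 (0.74 ± 0.16, adjusted p = 0.00654). On each of the 3 probes every HFD mouse lay above every LFD mouse. The brightest probe's call held under quantile normalization (1.23, adjusted p = 0.0323) and was lost when each array was scaled to the median of probes above background on every array (1, adjusted p = 0.0635) and with slide as a random effect (adjusted p = 0.119). It was also lost in 8 of the 18 fits that left out 1 mouse, which were those without any 1 LFD or any 1 HFD mouse (difference 0.93 to 1.17, adjusted p = 0.0544 to 0.107).

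On the brightest Dio1 probe methotrexate went with lower values on both diets, without a call on either. LFD MTX50 mice read 0.4, 0.86, 1.63, 1.4 and 0.22, of which 3 lay below every LFD mouse and mice 3 and 4 above LFD mouse 4, so the groups overlapped (-0.72 ± 0.36, adjusted p = 0.132; exact permutation p = 0.095). HFD MTX50 mice read 0.67, 2.02, 2.1, 2.7 and 2.73, and the last 2 lay within the range of HFD (-0.68 ± 0.36, adjusted p = 0.203; exact permutation p = 0.1). The probes did not give the same call in HFD MTX50 vs HFD. A_55_P2046657 read -1.75, -0.56, -0.75, -0.02 and -0.13 and just missed the threshold (-0.9 ± 0.28, adjusted p = 0.0501), and A_55_P2039429 read -1.97, -1.59, -1.68, -1.22 and -1.28 and passed (-0.5 ± 0.15, adjusted p = 0.0451). Within the slide that holds both groups the differences were -1.38, -1.52 and -0.86 (adjusted p = 0.0673, 0.0252 and 0.0215). HFD MTX50 mouse 1, the lowest on each probe, is 1 of the 2 treated mice there, and without it the difference on the brightest probe was -0.34 (adjusted p = 0.404). Without that mouse the spread was smaller, and LFD MTX50 vs LFD, which does not contain it, passed on the brightest probe (-0.72, adjusted p = 0.0463). Of the 18 fits that left out 1 mouse, only this 1 called that difference, and 0 of 15 other alternatives did.

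**Figure D3:**
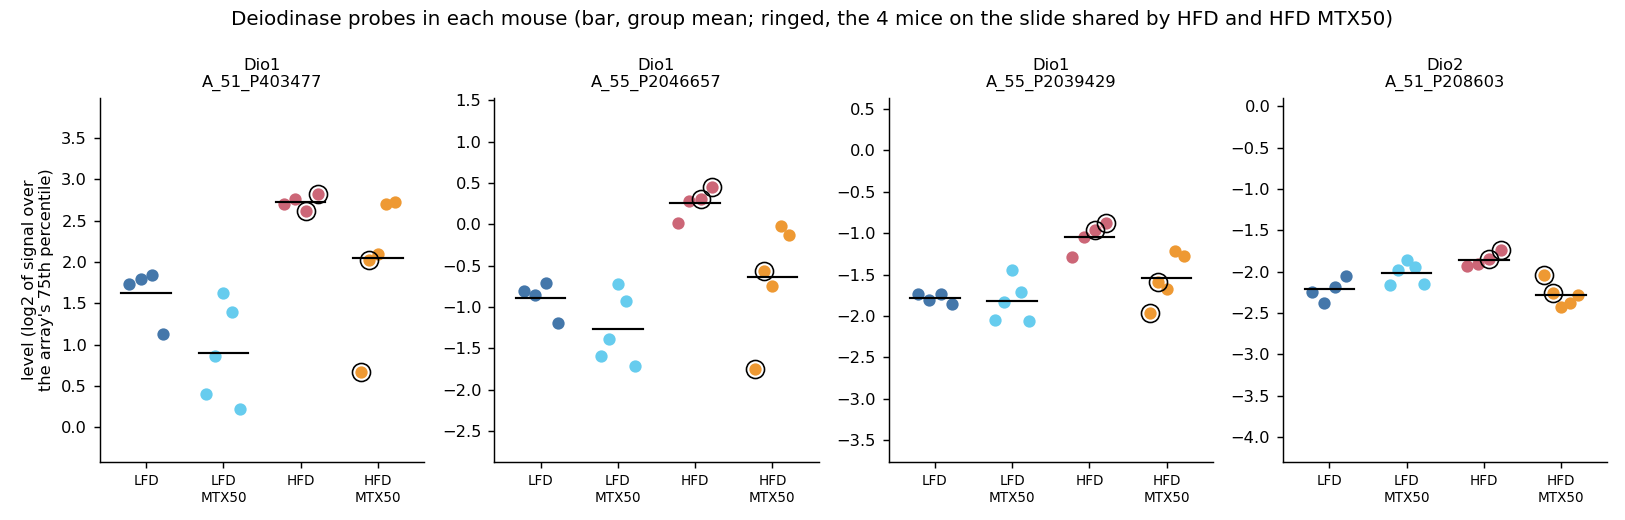
Levels of the 3 Dio1 probes and the Dio2 probe in each mouse. The y axis is the log2 signal over the array's 75th percentile and spans the same height in each panel, bars are group means, and rings mark the 4 mice on the slide that holds both HFD and HFD MTX50. On each Dio1 probe the 4 HFD mice lie above the 4 LFD mice and HFD MTX50 mouse 1 is the lowest of its group, and on Dio2 the 5 HFD MTX50 mice lie below the 4 HFD mice.

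In LFD MTX50 vs LFD the 2 dimmer Dio1 probes differed by -0.38 (adjusted p = 0.32) and -0.03 (adjusted p = 0.878). The methotrexate effect on the brightest Dio1 probe was not called different between the diets (0.04, interval -1.03 to 1.11, adjusted p = 0.957). It was not called on the dimmer probes either, where the estimates were negative. A_55_P2046657 gave -0.52 (interval -1.37 to 0.32, adjusted p = 0.335) and A_55_P2039429 gave -0.47 (interval -0.93 to -0.01, adjusted p = 0.113). Nearest to Dio1 in profile were Gm34566 (0.295) and Gm11568 (0.311), against a median of 0.752 over the pool.

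Dio2 makes active thyroid hormone inside the cell and is induced in brown fat by cold through cAMP. For that reason its upstream 250 bases are shown from the same RefSeq table (chr12:90739039-90739288, minus strand, written in the direction of transcription), with the cAMP response element TGACGTCA and the letters TATAAA in capitals.
Dio2: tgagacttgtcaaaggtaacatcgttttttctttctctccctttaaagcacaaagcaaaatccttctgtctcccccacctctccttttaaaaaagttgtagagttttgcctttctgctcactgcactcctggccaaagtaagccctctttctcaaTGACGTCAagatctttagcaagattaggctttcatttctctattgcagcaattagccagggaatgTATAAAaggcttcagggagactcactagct
The element begins 95 bases and TATAAA 30 bases before the start. Of the 32851 windows, 1.5% hold TGACGTCA and 12.4% TATAAA, and Dio2 is the 1 member of 8 with either.

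Dio2 was higher in HFD than in LFD and lower in HFD MTX50 than in HFD, by less than 1.4-fold each. Its levels were -2.24, -2.38, -2.18 and -2.05 in LFD, -1.93, -1.91, -1.84 and -1.74 in HFD, and -2.04, -2.26, -2.43, -2.38 and -2.28 in HFD MTX50. The HFD mice lay above both other groups with no overlap. HFD vs LFD was 0.36 ± 0.11 (SE, 1.28-fold; adjusted p = 0.022; exact permutation p = 0.029), where genes at that level had a median of 0.15 and 25% were called higher. HFD MTX50 vs HFD was -0.42 ± 0.1 (SE, 1.34-fold; adjusted p = 0.0197; exact permutation p = 0.016), where genes at that level had a median of -0.08 and 8.94% were called lower.

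LFD MTX50 mice had Dio2 levels of -2.16, -1.98, -1.86, -1.94 and -2.15, of which 3 lay above the highest LFD mouse (0.2 ± 0.1, adjusted p = 0.146; exact permutation p = 0.071). The methotrexate effect differed between the diets by -0.62 ± 0.14 (adjusted p = 0.00868), and genes at that level had a median of -0.21. HFD vs LFD was not called under quantile normalization (0.22, adjusted p = 0.121), with slide as a random effect (adjusted p = 0.133), or without LFD mouse 2 (adjusted p = 0.0732), HFD mouse 3 (0.0617) or HFD mouse 4 (0.0735), nor when scaled to the median of probes above background on every array (0.26, adjusted p = 0.059). HFD MTX50 vs HFD was not called within the shared slide (-0.36, adjusted p = 0.109), in the fit of the 2 groups alone (adjusted p = 0.0887), or without HFD mouse 3 (adjusted p = 0.0712) or HFD mouse 4 (0.0796). In the same comparison the white adipocyte markers summed to 4.16 to 6.68 in HFD and 0.627 to 1.59 in HFD MTX50 without overlap, and the ranges of the erythroid (2.56 to 3.49 and 0.539 to 2.82), neutrophil (48.3 to 68.4 and 45.6 to 126) and Kupffer cell markers (35.8 to 60.7 and 57.9 to 83) overlapped. Within the adipocyte list 1 of 5 markers was called higher and 1 lower (median -0.41). The medians of the erythroid, neutrophil and Kupffer cell lists were 0.03, 1.42 and 0.57, with 1, 0 and 0 called higher and 0 lower in each. The part of these cell types in the Dio2 result was not tested. The nearest genes to Dio2 by profile were Olfr524, an olfactory receptor gene (0.072), and Mob2, a regulator of kinases (0.075).

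**Figure D4:**
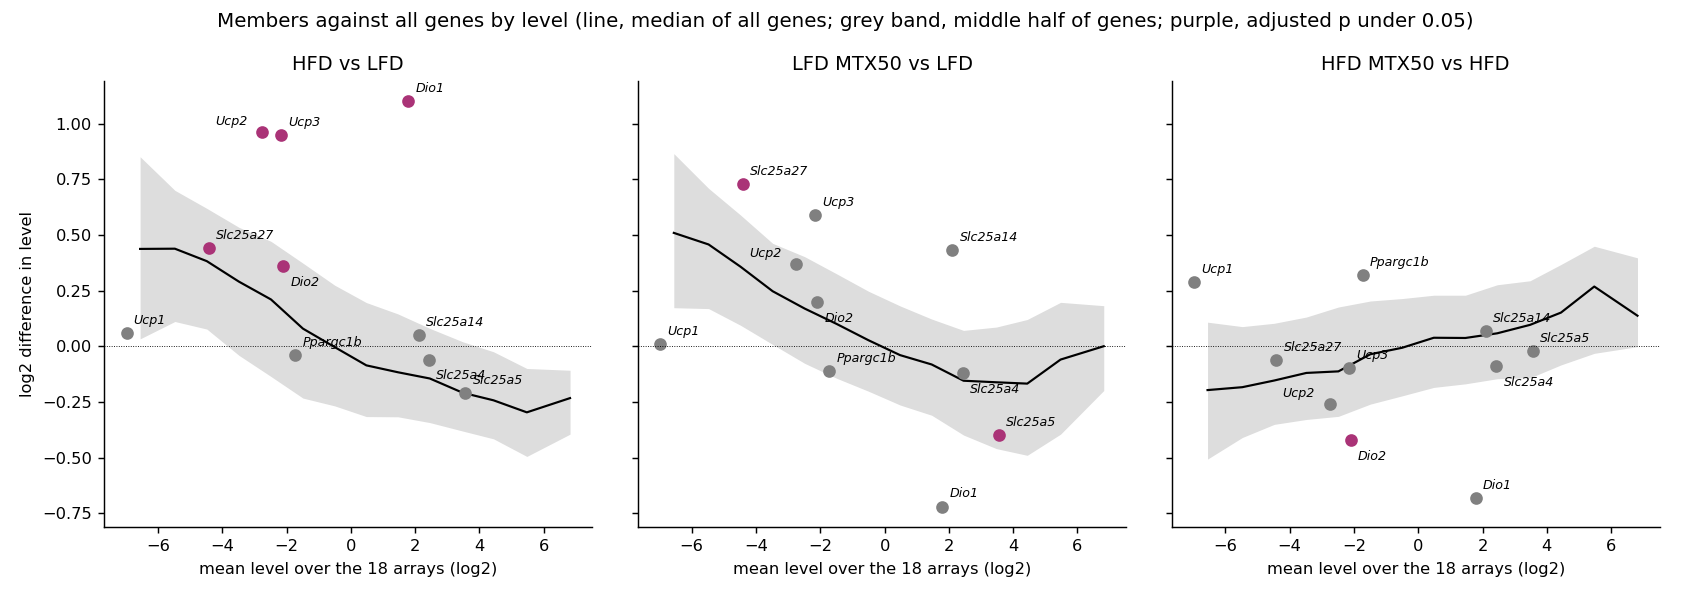
Log2 difference of the 10 genes (points) against their mean level over the 18 arrays, in each comparison. The line is the median and the grey band the interquartile range of the 19597 genes tested, by level, and purple marks an adjusted p under 0.05. Against LFD the line falls from above 0 for dim genes to below 0 for bright ones, and Ucp2, Ucp3 and Dio1 lie above the band in HFD vs LFD while Slc25a27 and Dio2 lie within it.

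Other genes of heat production and its control were read from lists chosen with earlier results of these data known. Of the 22 genes of thyroid hormone handling and response, 3 were higher and 3 lower in HFD vs LFD (median -0.1 against 0.08 over all genes) and 4 and 4 in LFD MTX50 vs LFD (-0.12 against 0.1). Over all genes, the shares called higher and lower were 18% and 10.4% in the first and 17.6% and 10.5% in the second comparison. In HFD MTX50 vs HFD limma called 0 of the 22, beside 4.83% of all genes higher and 6.13% lower. Of the 22, 10 had an unadjusted p under 0.05 there. Hairless (Hr), a corepressor that thyroid hormone induces, was higher in HFD (0.61, adjusted p = 0.0287), and the coactivator Ncoa1 was lower (-0.62, adjusted p = 0.00796). With methotrexate on the low-fat diet, malic enzyme Me1 was lower (-1.58, adjusted p = 0.0102) and the transcription factor Klf9 was higher (0.92, adjusted p = 0.00698).

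Among 14 measured brown and beige fat genes, 6 were higher and 1 lower in HFD vs LFD (median 0.42 against 0.08), 4 higher and 1 lower in LFD MTX50 vs LFD (0.23 against 0.1), and 1 higher and 3 lower in HFD MTX50 vs HFD (-0.29 against -0.04). Over all genes the shares called higher and lower were 18% and 10.4%, 17.6% and 10.5%, and 4.83% and 6.13%, in the same order. Cidea, which codes for a lipid droplet protein that fatty liver also expresses, was higher in HFD (4.17 ± 0.7, adjusted p = 0.00289) and lower in HFD MTX50 (-3.36 ± 0.67, adjusted p = 0.00981). The beta-3 adrenergic receptor gene Adrb3 went the other way, lower in HFD (-1.01, adjusted p = 0.00704) and higher with methotrexate on the low-fat (0.6, adjusted p = 0.0458) and the high-fat diet (1.35, adjusted p = 0.00636). The coregulator Cited1 was higher in HFD (0.67, adjusted p = 0.0293) and in LFD MTX50 (0.57, adjusted p = 0.0419). Elovl3, a fatty acid elongase, fell by 6.5 on the log2 scale in LFD MTX50 vs LFD (adjusted p = 4.23e-05), and Cox7a1, a subunit of cytochrome oxidase, was lower in HFD MTX50 (-0.65, adjusted p = 0.0463).

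The other mitochondrial carriers move metabolites such as phosphate, citrate and amino acids across the inner membrane. Of 45 measured, 3 were higher and 5 lower in HFD vs LFD, 4 were higher and 8 lower in LFD MTX50 vs LFD, and 1 and 1 in HFD MTX50 vs HFD, with medians of 0.04, -0.14 and -0.13 against 0.08, 0.1 and -0.04 over all genes. The shares of all genes called higher and lower were 18% and 10.4%, 17.6% and 10.5%, and 4.83% and 6.13%. Slc25a10, the dicarboxylate carrier, was higher in HFD (0.89, adjusted p = 0.0105) and lower in HFD MTX50 (-1.42, adjusted p = 0.005). In HFD the carrier Slc25a30, a relative of the uncoupling proteins, was higher (1 ± 0.35, adjusted p = 0.0414) and the phosphate carrier Slc25a3 lower (-0.7, adjusted p = 0.00688). In LFD MTX50 the mitochondrial coenzyme A carrier Slc25a42 (-1, adjusted p = 0.00256) and Slc25a17 (-0.89, adjusted p = 0.00143), a member of the same family in the peroxisomal membrane, were lower and Slc25a41 higher (0.93, adjusted p = 0.00682). The aspartate-glutamate carrier Slc25a12 was higher in HFD MTX50 (0.66, adjusted p = 0.0139).

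Heat-producing cycles other than Ucp1 showed 0 higher and 2 lower of 16 measured genes in HFD vs LFD, 1 higher and 2 lower in LFD MTX50 vs LFD, and 0 and 2 in HFD MTX50 vs HFD, with medians of -0.09, -0.12 and -0.04. Beside these counts, 18% and 10.4%, 17.6% and 10.5%, and 4.83% and 6.13% of all genes were called higher and lower. Glycerol phosphate dehydrogenase Gpd1 was lower with methotrexate on both diets (-0.99, adjusted p = 0.00348, and -0.81, adjusted p = 0.0194). Creatine kinase Ckb was lower in HFD MTX50 (-0.86, adjusted p = 0.00665), Gatm, the first enzyme of creatine synthesis, was lower in HFD (-0.93, adjusted p = 0.0398), and Letmd1 was lower in HFD too (-0.46, adjusted p = 0.0113). In LFD MTX50 the calcium pump Atp2a1 was higher (0.6, adjusted p = 0.0104) and the secreted enzyme Pm20d1 lower (-0.5, adjusted p = 0.0491).

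Of 12 genes that handle adenine nucleotides beside Slc25a4 and Slc25a5, 4 were lower and 0 higher in HFD vs LFD, 3 lower and 1 higher in LFD MTX50 vs LFD, and 0 in HFD MTX50 vs HFD, where 2 of the 12 had an unadjusted p under 0.05. The medians were 0.07, -0.25 and 0. Over all genes the shares called lower and higher were 10.4% and 18%, 10.5% and 17.6%, and 6.13% and 4.83%, in the same order. Adenylate kinase Ak4 (-0.68, adjusted p = 0.0055) and the outer membrane channels Vdac1 (-0.48, adjusted p = 0.0231) and Vdac2 (-0.45, adjusted p = 0.00802) were lower in HFD. Hexokinase Hk1 (-2.04, adjusted p = 0.0114) and the nucleoside diphosphate kinase Nme4 (-1, adjusted p = 0.0127) were lower in LFD MTX50 and Nme3 was higher (0.46, adjusted p = 0.0113).

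In the adrenergic list of 13 genes, 3 were higher and 0 lower in HFD vs LFD, 0 higher and 2 lower in LFD MTX50 vs LFD, and 1 and 2 in HFD MTX50 vs HFD, with medians of -0.06, -0.06 and 0. The shares over all genes, higher and lower, were 18% and 10.4%, 17.6% and 10.5%, and 4.83% and 6.13%. Prkaca, which codes for a catalytic subunit of protein kinase A, was higher in HFD (0.37, adjusted p = 0.0209) and lower in HFD MTX50 (-0.38, adjusted p = 0.0301). The regulatory subunit Prkar2b was higher in HFD (0.52, adjusted p = 0.0332). Gnas (-0.49, adjusted p = 0.0313), which codes for the stimulatory G protein, and Prkar2a (-0.3, adjusted p = 0.0419) were lower in LFD MTX50, and the stress kinase Mapk14 was higher in HFD MTX50 (0.41, adjusted p = 0.04).

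**Figure D5:**
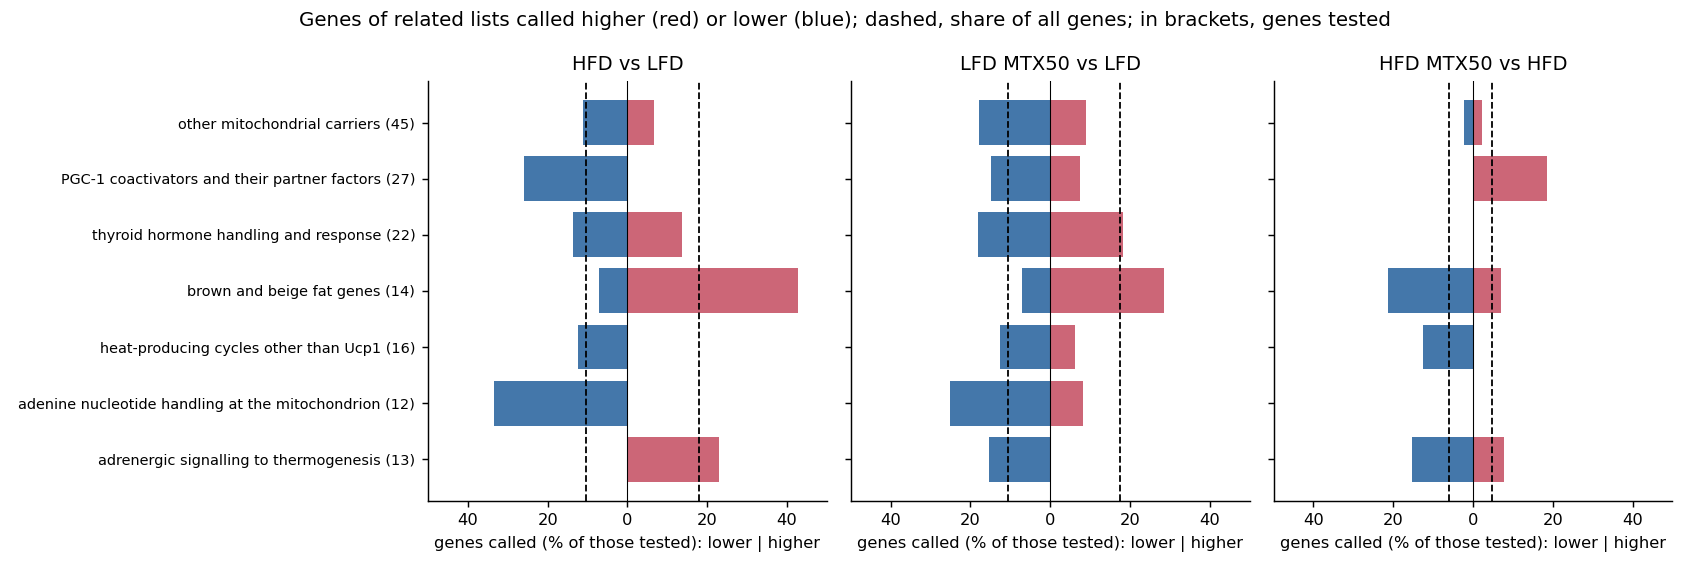
Share of the measured genes of 7 related lists called lower (blue, left) or higher (red, right) in each comparison, in percent of the genes tested. Dashed lines mark the share of all 19597 genes called in that direction, such as 18% higher and 10.4% lower in HFD vs LFD. The PGC-1 list shows lower calls alone in HFD vs LFD (7 of 27) and higher calls alone in HFD MTX50 vs HFD (5 of 27).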

How the data were processed

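Liver RNA of 18 mice was measured, 1 array per mouse. Agilent Feature Extraction 10.7.3.1 had made the deposited intensity of each spot, background-subtracted and detrended within the array. The authors built lists of genes changed 2-fold. Here, the log2 intensity minus the log2 of the array's 75th percentile was used. Control spots and outlier spots were left out, and spots of 1 probe were averaged. Of 39429 probes, 28025 (71.1%) had 1 gene name. Probes well above background on at least 4 of 18 arrays were kept (35738). A model of the 4 groups was fitted with limma 3.58.1 in R 4.3.3 and p-values were Benjamini-Hochberg adjusted over the kept probes. Calls rest on the adjusted p, and a two-sided exact permutation p is given beside it for single probes. The authors' value table, deposited as background-subtracted linear intensity of the same arrays, served as an alternative. Genes named from each related list are the 3 with the largest difference among those called in each comparison, apart from some that are not reported here, and the genes nearest by profile are the 2 with the smallest mean absolute difference over 18 arrays. The members and lists were chosen with earlier results of these data known. The alternatives comprised background correction, scaling, filters, slide, replicate number, left-out mice, the treatment of several probes and the methods' t-test.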

Additional observations from a re-analysis of the deposited data

Results flagged for a closer look

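Dio1 on its brightest probe read 1.13 in LFD mouse 4, apart from the next LFD mouse at 1.73. The gap took 0.84 of the group's range, over the critical value of 0.829 for 4 samples. This was 1 of 52 groups examined, of which chance marks about 1 in 20.

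The effect of methotrexate differed between the diets for Slc25a27 (-0.79, limma adjusted p = 0.0162) and for Dio2 (-0.62, limma adjusted p = 0.00868). For Slc25a27 the effect was 0.73 on the low-fat and -0.06 on the high-fat diet, and for Dio2 it was 0.2 and -0.42. Both differences were called in each of the 18 fits that left out 1 mouse, and neither with slide as a random effect.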

How the results depend on the processing

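The 1296 recomputed member values kept their direction and their side of the threshold in 1131 cases, lost the call in 82, gained one in 10, and turned sign in 72 with neither value called and in 1 with a call. That 1 was Dio2 in HFD MTX50 vs HFD, 0.33 (adjusted p = 0.535) after normexp correction on the median spot and background signals, since the mean signal was not in the files used here. That correction left 0 members called in each of the 3 comparisons and 0 in the difference between the treatment effects. Spots with a background over 10 times the array's median were on 0 of 4 LFD, 3 of 5 LFD MTX50, 2 of 4 HFD and 5 of 5 HFD MTX50 arrays, at most 25 on an array (HFD MTX50 mouse 3). With these backgrounds set to the array's median, an alternative chosen after seeing the data, the count was 3 for HFD vs LFD, 1 for LFD MTX50 vs LFD, 0 for HFD MTX50 vs HFD and 0 for the difference. The cause of these changes was not tested.

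Against 5 members called in HFD vs LFD, 3 were called after quantile normalization, 2 when scaled to the median of probes above background on every array, 3 in the authors' value table, 3 by the methods' t-test after adjustment and 1 at its unadjusted threshold with a 2-fold difference, and 0 with slide as a random effect. Against 2 in LFD MTX50 vs LFD, quantile normalization gave 1, the t-test with a 2-fold difference 0 and the random slide effect 0. Against 1 in HFD MTX50 vs HFD, the fit of the 2 groups, both forms of the t-test and the slide as a fixed block gave 0. Against 2 in the difference between effects, quantile normalization gave 1 and the random slide effect 0. Leaving out 1 mouse at a time gave 1 to 5, 1 to 3, 0 to 1 and 2 to 3 members called in these 4 tests. In HFD vs LFD the count of 1 came without LFD mouse 2 or HFD mouse 3. Ucp3 in HFD vs LFD and Slc25a27 in LFD MTX50 vs LFD were called in each of these 18 fits.

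Replicate numbers did not pair the samples, since the correlations of same-numbered mice ran from -0.313 to 0.254. With the replicate number as a block 4, 2, 0 and 2 members were called, Slc25a27 in HFD vs LFD (adjusted p = 0.0707) and Dio2 in HFD MTX50 vs HFD (adjusted p = 0.0533) being lost.

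Ucp1 has no value where only probes above background on every array were kept. The difference between effects has no value in a fit of 2 groups, by t-test or with a fixed slide block. Signal over background limits Ucp1 and the dim Ucp3 probe to bounds at most.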
